A study of Ulva lactuca with 7 samples.

Results

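The genes described here are 60 assembled genes of the green intertidal seaweed Ulva lactuca, whose transcripts stood near the level of submerged thalli while the thalli were dry and stood lower after 1 h back in seawater. The series has 7 conditions, each with a single library: thalli resubmerged for 1 h in autoclaved seawater after 24, 36 or 72 h of desiccation, thalli desiccated for 24, 36 or 72 h at 20% moisture without resubmergence, and control thalli that were always submerged. All thalli were acclimatised to the laboratory before the treatments, and the labels do not say how many thalli went into a library. The table holds 137594 assembled transcripts in 90206 assembled genes, and each gene was represented by its transcript with the highest summed count. A gene was eligible if this transcript had at least 35% GC and at least 50 counts in the control, which left 10724 genes. Levels within a gene are in CPM, the count scaled to the same total in each library. In 3751 eligible genes the 3 dried libraries each stood between 0.5 and 2 times the control, and these are called the stable genes here. Of them, 60 had each resubmerged library at or under 0.67 times both the control and the dried library of its own period, which is 1.60% of the stable genes. The opposite pattern, each resubmerged library at least 1.49 times both, was met by 202 stable genes (5.39%).

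The 60 genes were chosen by these ratios of all 7 libraries, so the ratios are given as a description and carry no test. Without the condition on the dried libraries, all 6 resubmerged ratios were at or under 0.67 in 108 eligible genes (1.01%), and nothing is read from these shares. No condition was replicated, so intervals given below cover counting error only (95%, exact binomial) and no variation between thalli. The reads carried no molecular identifiers and may repeat a molecule, and a read may be counted on several transcripts. The intervals may therefore be too narrow even for counting error.

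An intertidal seaweed loses water when the tide leaves it and takes it up again when the tide returns. Return to water restarts metabolism in tissue that had slowed down, and transcript levels can then move either way. A transcript level is set by synthesis and by decay, and a count of reads does not separate them. In a whole thallus, fewer cells of a type and less RNA per cell cannot be told apart either. The files do not pair the transcripts with gene names, products or sequences, so the roles of the 60 genes are unknown here and each is given by its assembly identifier.

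Library totals ran from 63782317 counts in the library dried for 72 h to 97270080 in the one dried for 24 h. The median eligible gene had ratios to the control of 0.776, 0.850 and 0.959 in the libraries resubmerged after 24, 36 and 72 h, and of 0.744, 0.760 and 0.846 in the libraries dried for these periods. Its ratios of resubmerged to dried were 1.08, 1.18 and 1.12. The ratios of the 60 genes are to be read beside these shifts of the typical gene.

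The 60 genes together stood near 0.5 times their dried and control levels in each resubmerged library. Their summed level was 402, 360.2 and 414 CPM after resubmergence from 24, 36 and 72 h, 894, 805 and 772 CPM in the dried libraries and 795 CPM in the control. One gene, c32288_g2_i1, made up 46.2%, 43.7% and 38.6% of the sum in the resubmerged libraries, 43.04%, 33.97% and 33.9% in the dried ones and 37.2% in the control. Without it the summed ratio of resubmerged to dried was 0.424, 0.381 and 0.497, against 0.449, 0.447 and 0.536 with it. The rule holds every member at or under 0.67, so a low sum without this gene was fixed by the choice.

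Gene by gene, the median ratio of resubmerged to control was 0.432, 0.419 and 0.505 after 24, 36 and 72 h. The median ratio of resubmerged to dried was 0.424, 0.382 and 0.542, and the lowest single ratios were 0.110, 0.117 and 0.273. The dried libraries themselves had median ratios to the control of 1.05, 1.02 and 0.984. The plot of the 60 genes by library shows the 3 resubmerged libraries below the other 4 in nearly every gene. In 56 of the 60 genes the highest of the 3 resubmerged libraries was under the lowest of the 3 dried libraries and the control, a pattern found in 13.3% of the stable genes and 5.63% of the eligible ones. The choice of members largely fixed this pattern, so nothing is read from the contrast. The 4 genes with an overlap were c30551_g1_i1, c31119_g1_i1, c30135_g1_i3 and c30120_g1_i7.

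**Figure D1:**
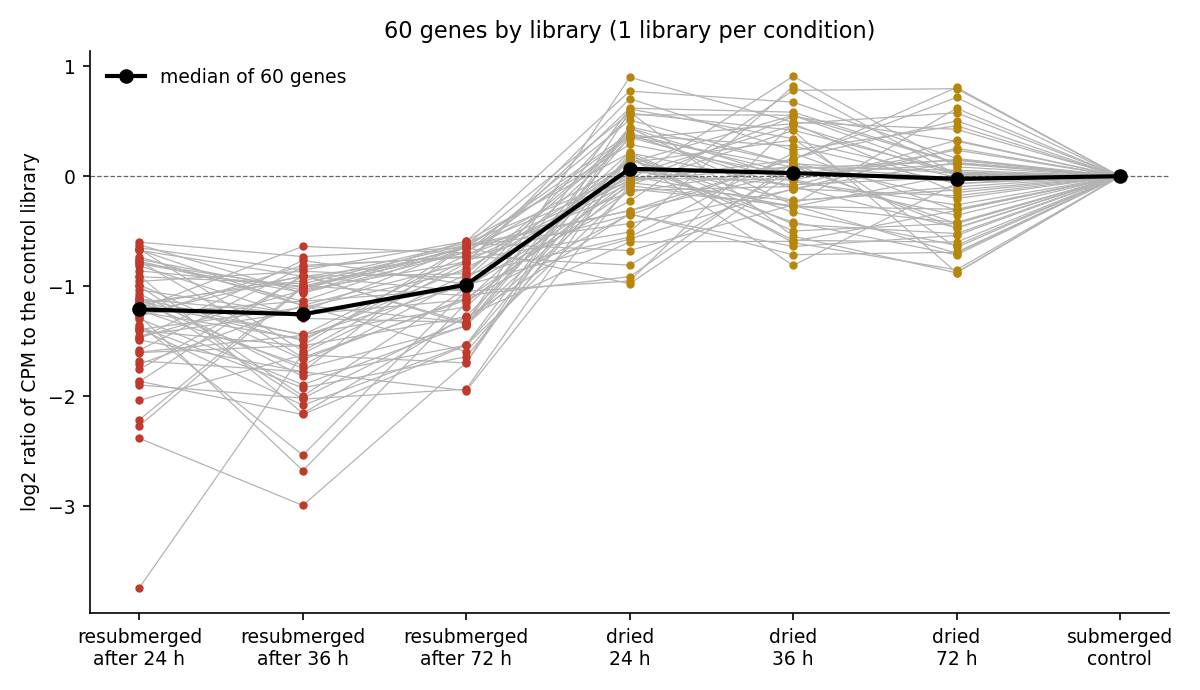
Log2 ratio of CPM to the control library for the 60 genes in the 7 libraries, 1 point per gene and library, grey lines joining a gene and the black line the median. The medians of the resubmerged libraries stand near -1.21, -1.26 and -0.99 after 24, 36 and 72 h, and those of the dried libraries near 0.

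Ranked by the largest of the 6 resubmerged ratios, the first gene was c27453_g2_i1 (1007 nt, 51.04% GC). It had 1.77, 1.09 and 1.60 CPM after resubmergence from 24, 36 and 72 h, 6.28, 4.54 and 3.62 CPM in the dried libraries of these periods and 4.63 CPM in the control. Every resubmerged library was under 0.5 times every other library, and the ratio to the dried library was 0.282 (95% counting interval 0.235 to 0.337) at 24 h, 0.241 (95% counting interval 0.190 to 0.302) at 36 h and 0.443 (95% counting interval 0.353 to 0.552) at 72 h. c8522_g1_i1 (1189 nt, 51.98% GC) came next with 0.841, 0.682 and 1.06 CPM in the resubmerged libraries, 2.83, 2.55 and 2.29 CPM in the dried ones and 3.06 CPM in the control. c23392_g1_i2 (1117 nt, 50.2% GC) had 2.44, 1.61 and 2.10 CPM in the resubmerged libraries, 6.92, 5.24 and 4.52 CPM in the dried ones and 5.41 CPM in the control. In these 3 genes the library resubmerged after 36 h was the lowest, and the dried libraries stood at their lowest after 72 h.

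c38137_g1_i1 (353 nt, 47.03% GC) was the second most abundant of the 60 genes and among the deepest. It had 18.5, 9.70 and 10.3 CPM in the resubmerged libraries, 44.8, 22.5 and 37.8 CPM in the dried ones and 39.6 CPM in the control. Its level in the library dried for 36 h was low too, at 0.570 times the control, close to the lower edge of the window. Its ratio to the dried library was lowest at 72 h, 0.273 (95% counting interval 0.252 to 0.296), and this was the lowest such ratio among the 60 genes in that period. Next lowest at 72 h was c24210_g1_i1 (247 nt, 55.5% GC), with 0.807, 1.32 and 1.13 CPM in the resubmerged libraries, 1.91, 3.85 and 3.89 CPM in the dried ones and 2.24 CPM in the control. Its 72 h ratio of 0.291 went with dried libraries of 36 and 72 h that stood above the control.

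c34194_g6_i1 (1721 nt, 54.7% GC) had 0.964, 0.788 and 0.6999 CPM in the resubmerged libraries, 2.56, 3.61 and 1.47 CPM in the dried ones and 2.71 CPM in the control. c32542_g2_i1 (880 nt, 54.3% GC) had 0.482, 0.212 and 0.598 CPM in the resubmerged libraries, 1.81, 1.81 and 1.33 CPM in the dried ones and 1.23 CPM in the control, and its level after 36 h rested on 18 counts. Both had control counts under 200, so their ratios carry wide counting intervals, for c32542_g2_i1 at 36 h 0.117 (95% counting interval 0.0678 to 0.191). c23369_g1_i1 (700 nt, 50.4% GC) had 2.94, 1.999 and 2.43 CPM in the resubmerged libraries, 8.62, 6.04 and 4.91 CPM in the dried ones and 7.59 CPM in the control, and 301 nt long c23193_g1_i1 had 0.292, 0.388 and 0.369 CPM in the resubmerged libraries, 1.62, 0.998 and 0.737 CPM in the dried ones and 1.20 CPM in the control. The resubmerged libraries of both genes stayed apart from the rest, and their dried libraries stood in the order of the periods, highest after 24 h and lowest after 72 h.

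c30630_g1_i6 (2985 nt, 49.2% GC) had 10.3, 11.5 and 15.7 CPM in the resubmerged libraries, 21.02, 28.9 and 34.1 CPM in the dried ones and 31.2 CPM in the control, on 919 to 2576 counts. It ran the other way over the dried libraries, lowest after 24 h and highest after 72 h. c19081_g1_i1 (766 nt, 49.5% GC), the last of the first 10 genes, had 2.48, 1.75 and 3.03 CPM in the resubmerged libraries, 5.79, 4.77 and 5.83 CPM in the dried ones and 5.77 CPM in the control, with dried libraries within 1.22 times of each other and the control. In 7 of the 60 genes all 6 ratios were at or under 0.5, and by the way of ranking these are its first 7. A stable gene with such ratios meets the rule by definition, so the same 7 genes are all there are among the stable genes (0.187%).

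**Figure D2:**
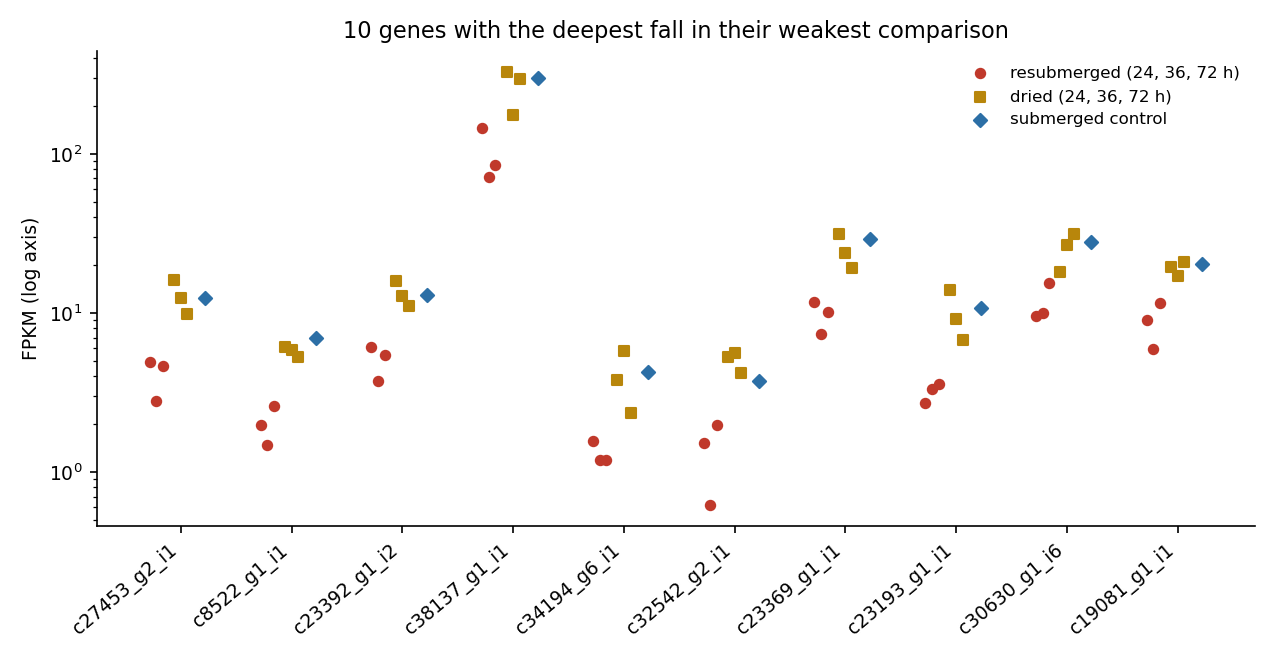
FPKM on a log axis in the 7 libraries for the 10 genes with the lowest value of their largest resubmerged ratio, red circles for resubmerged, ochre squares for dried (each 24, 36 and 72 h from left to right) and blue diamonds for the control. The red points lie below the others in each gene, and c38137_g1_i1 stands about an order of magnitude above the rest.

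Levels between genes are compared per length, in FPKM as the authors deposited it. The 60 genes had a median of 9.55 FPKM in the control, with a range of 2.67 to 1287. The median was 10.4 in the other stable genes and 8.78 in all eligible genes. In counts, the control median was 352.5 in the 60 and 610 in the other stable genes. The 60 made up 2.26% of the stable genes with 50 to 100 control counts and 0.755% of those with 1000 or more. Per length, most were thus genes of ordinary level, and the most abundant stood far above the rest. This gene, c32288_g2_i1 (618 nt, 47.2% GC), had 837, 659.7 and 754 FPKM in the resubmerged libraries, 1597, 1215 and 1164 FPKM in the dried ones and 1287 FPKM in the control. With 16542, 13394 and 12563 counts after resubmergence, 37440, 24390 and 16687 in the dried libraries and 19034 in the control, it is the gene measured with the least counting error, and its ratio to the dried library in CPM was 0.482 (95% counting interval 0.473 to 0.491), 0.576 (95% counting interval 0.564 to 0.588) and 0.611 (95% counting interval 0.597 to 0.625) after 24, 36 and 72 h.

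Second was c38137_g1_i1, with 146, 71.1 and 85.3 FPKM in the resubmerged libraries, 325, 175 and 295 FPKM in the dried ones and 301 FPKM in the control. The next in level was c33473_g2_i1 (276 nt, 51.4% GC) with 41.7, 35.2 and 46.9 FPKM in the resubmerged libraries, 78.4, 73.6 and 72.5 FPKM in the dried ones and 87.2 FPKM in the control. The 3 resubmerged libraries of c33473_g2_i1 differed in FPKM by 1.33 times at most, and its control and dried libraries by 1.20 times. c30953_g1_i6 (2370 nt, 49.1% GC) had 10.7, 10.4 and 22.1 FPKM in the resubmerged libraries, 24.2, 32.9 and 31.5 FPKM in the dried ones and 31.5 FPKM in the control, and its library resubmerged after 72 h stood well above its other 2 resubmerged libraries.

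In CPM, fewer stable genes were low at 72 h than in either shorter period. Of the stable genes, 884 (23.6%) were at or under 0.67 times both the control and the dried library after 24 h, 1006 (26.8%) after 36 h and 156 (4.16%) after 72 h. Low in both shorter periods and not at 72 h were 461 stable genes, and without the 72 h pair of libraries 609 genes met the rule, all 60 among them. A further 200 stable genes met 5 of the 6 limits, and in 151 of these the one missed was the ratio of resubmerged to dried at 72 h and in 28 the ratio of resubmerged to control at 72 h. Among the 60 genes the ratio to the dried library was highest at 72 h in 41, a count not made over all stable genes. It was at or under 0.5 in 46 genes after 24 h, 47 after 36 h and 19 after 72 h, where 13.6%, 19.0% and 2.21% of the stable genes reached this. The choice already held these ratios of the 60 at or under 0.67, so nothing is read from the contrast with the stable genes. The plot of both ratios by period shows the cloud of stable genes shifted upward at 72 h. The median stable gene outside the group had a ratio of resubmerged to dried of 0.942, 0.875 and 1.06 in the 3 periods. The order of the periods depended on the scaling, against the dried libraries as well as against the control. The log2 ratio of resubmerged to dried of the median eligible gene was 0.108, 0.241 and 0.163 in CPM. With trimmed-mean scaling it was -0.050, 0.074 and 0.072, and with median-of-ratios size factors -0.005, 0.099 and -0.021. For the median eligible gene the log2 ratio of resubmerged to control was -0.365, -0.234 and -0.061 in CPM. It was -0.128, -0.164 and -0.199 with trimmed-mean scaling and -0.150, -0.218 and -0.256 with median-of-ratios size factors. The stable genes low in each period were counted in CPM only.

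**Figure D3:**
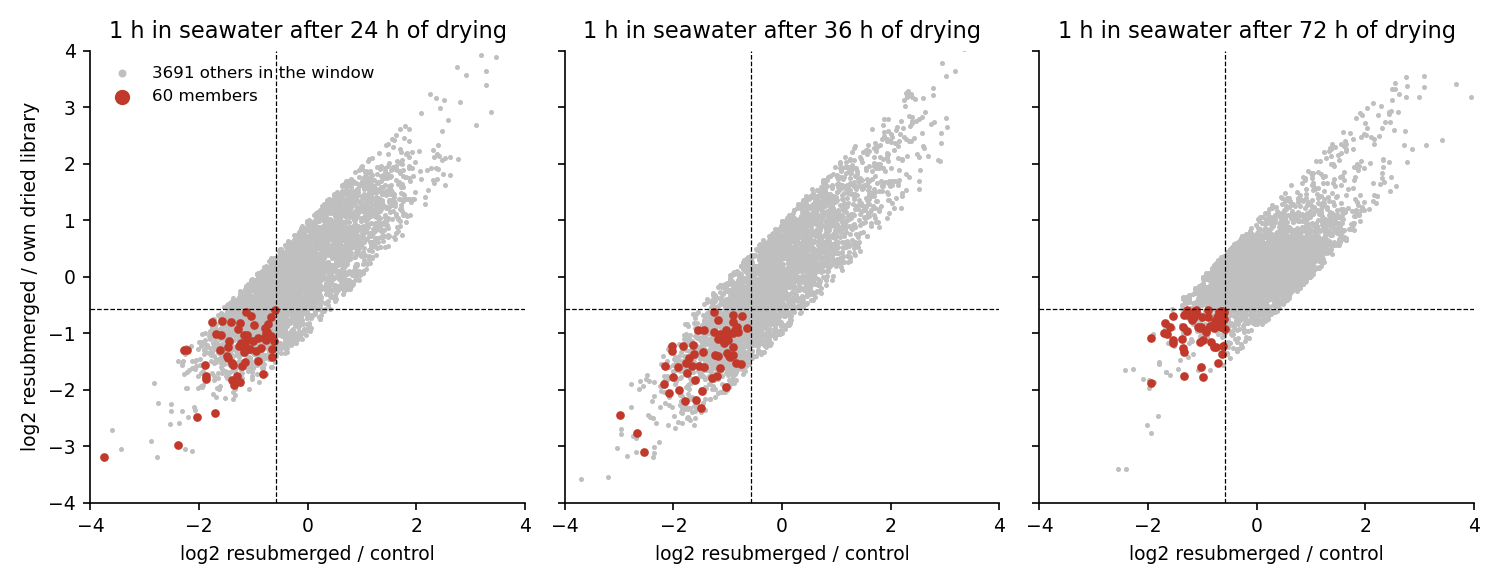
Log2 ratio of the resubmerged library to its own dried library (y) against its log2 ratio to the control (x) for the 3751 stable genes, 1 panel per drying period, with the 60 genes in red and the limit of 0.67 as dashed lines. The lower left corner holds 23.6%, 26.8% and 4.16% of the stable genes after 24, 36 and 72 h, and 18 genes lie beyond the axes in at least 1 panel.

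The edge of the group lay mostly at 72 h as well, since the largest ratio of 4 of the next 6 genes was the one to the library dried for 72 h. The last 3 genes inside the limit were c31842_g1_i7 (2237 nt, 51.3% GC), c31964_g5_i1 (232 nt, 43.5% GC) and c33517_g1_i2 (680 nt, 52.8% GC), with largest ratios of 0.666, 0.669 and 0.669. The first 3 outside were c29125_g1_i1, c32917_g2_i3 and c33625_g1_i1, at 0.671, 0.671 and 0.672. Of these, c29125_g1_i1 had 13.3, 11.4 and 25.1 CPM in the resubmerged libraries, 52.96, 48.2 and 37.5 CPM in the dried ones and 41.4 CPM in the control, so at 24 and 36 h it stood deeper than most genes inside. The gene c33517_g1_i2 was the weakest of the 60, with 54, 47 and 46 counts after resubmergence, 88, 80 and 69 in the dried libraries and 59 in the control and ratios to the dried library of 0.669, 0.616 and 0.541.

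Some genes were far lower in 1 resubmerged library than in the others. c31964_g5_i1 (232 nt, 43.5% GC), the gene with the lowest GC before c38137_g1_i1, had 0.191, 0.835 and 1.37 CPM in the resubmerged libraries, 1.74, 2.95 and 2.05 CPM in the dried ones and 2.55 CPM in the control. Its ratio to the dried library was 0.110 (95% counting interval 0.0624 to 0.181) at 24 h, on 17 counts, and 0.669 (95% counting interval 0.514 to 0.870) at 72 h, and its resubmerged libraries spanned 7.21 times. c37860_g1_i1 (309 nt, 59.9% GC) had 0.718, 0.470 and 1.16 CPM in the resubmerged libraries, 5.62, 2.57 and 2.04 CPM in the dried ones and 3.75 CPM in the control, with ratios to the dried library of 0.128, 0.183 and 0.568. Both genes showed their lowest ratio to the dried library at 24 h, and c37860_g1_i1 also had the widest spread over the control and the dried libraries, 2.76 times.

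c28235_g1_i1 (1442 nt, 50.8% GC) was lowest after 36 h, with 2.12, 0.7996 and 2.30 CPM in the resubmerged libraries, 4.98, 5.44 and 3.79 CPM in the dried ones and 5.12 CPM in the control. c30551_g1_i1 (2225 nt, 48.9% GC) had 1.15, 2.76 and 3.55 CPM in the resubmerged libraries, 2.83, 5.66 and 5.41 CPM in the dried ones and 5.57 CPM in the control. In c30551_g1_i1 the library dried for 24 h was low already, at 0.508 times the control, and the libraries resubmerged after longer drying stood near or above it. Over all 60 genes the library resubmerged after 36 h was the lowest of the 3 in 35 genes, that after 24 h in 20 and that after 72 h in 5. These counts are in CPM and were not made over all stable genes. In CPM the median log2 ratio of the 60 to the control was -1.21, -1.26 and -0.99 after 24, 36 and 72 h. With trimmed-mean scaling it was -0.97, -1.19 and -1.12, and with median-of-ratios size factors -0.996, -1.24 and -1.18. The period least low was thus 72 h in CPM and 24 h with either other scaling. The 3 resubmerged libraries differed by a median of 1.56 times, against 1.72 times in all stable genes and 2.08 times in all eligible genes. The choice of members set an upper limit on each of these 3 libraries, so nothing is read from the narrower spread.

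Before resubmergence the 60 genes followed no single course. They stood above the control in 0 dried libraries in 7 genes, in 1 library in 26, in 2 in 14 and in all 3 in 13. The library dried for 24 h was the highest of the 3 in 32 genes, that of 36 h in 15 and that of 72 h in 13. These counts are in CPM and were not made over all stable genes, so nothing is read from them. The longest of them, c33893_g1_i10 (6779 nt, 54.99% GC), was above the control throughout, with 13.2, 9.49 and 9.25 CPM in the resubmerged libraries, 43.4, 32.7 and 31.2 CPM in the dried ones and 23.2 CPM in the control, and its ratios to the dried library of 0.305, 0.291 and 0.296 were nearly equal over the periods. The second longest, c29800_g1_i4 (4596 nt, 57.5% GC), had 6.86, 5.46 and 9.03 CPM in the resubmerged libraries, 14.5, 16.5 and 25.99 CPM in the dried ones and 14.8 CPM in the control. Its library dried for 72 h was the highest of the 7, and its ratios to the dried library were 0.474, 0.331 and 0.348.

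The steadiest gene before resubmergence was c34535_g1_i1 (1097 nt, 53.6% GC), with 0.684, 0.482 and 0.433 CPM in the resubmerged libraries, 1.12, 1.03 and 1.08 CPM in the dried ones and 1.09 CPM in the control. Next were c20154_g1_i1 (1315 nt, 50.9% GC) with 0.942, 1.85 and 1.35 CPM in the resubmerged libraries, 3.30, 2.94 and 3.21 CPM in the dried ones and 3.44 CPM in the control and c30050_g1_i5 (2623 nt, 48.99% GC) with 7.56, 9.05 and 10.3 CPM in the resubmerged libraries, 15.4, 18.1 and 16.8 CPM in the dried ones and 17.04 CPM in the control. In these 3 genes the control and the 3 dried libraries lay within 1.09, 1.17 and 1.18 times, and the 3 resubmerged libraries all lay below them. At the other end, c30120_g1_i7 (2657 nt, 50.7% GC) had 6.30, 11.3 and 10.3 CPM in the resubmerged libraries, 10.99, 29.6 and 19.2 CPM in the dried ones and 21.3 CPM in the control, and c30277_g1_i1 (2458 nt, 53.3% GC) had 2.89, 2.26 and 3.75 CPM in the resubmerged libraries, 4.47, 11.2 and 6.43 CPM in the dried ones and 6.36 CPM in the control. Both were highest in the library dried for 36 h and lowest among the dried ones at 24 h, where c30120_g1_i7 stood at 0.517 times the control.

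The genes were lower in GC content and shorter than the other stable genes, properties that the choice of members did not use beyond the minimum of 35% GC. Their median GC was 52.0% (range 43.5% to 60.3%), against 55.9% in the other 3691 stable genes and 57.1% in all eligible genes. Their median length was 1371 nt (range 210 to 6779), against 2495 nt in the other stable genes and 2202 nt in all eligible genes. By GC, 1 of 7 stable genes under 45% belonged to the group, 12 of 368 stable genes of 45 to 50% (3.26%), 32 of 1348 of 50 to 55% (2.37%), 14 of 1025 of 55 to 60% (1.37%), 1 of 771 of 60 to 65% (0.130%) and 0 of 232 of 65% or more. By length, 9 of 250 stable genes under 500 nt belonged to it (3.60%) and 5 of 1004 of 4000 nt or more (0.498%), with the 3 classes between in order. Genes are not replicates, so these differences were not tested.

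The shortest genes were c56202_g1_i1 (210 nt, 54.8% GC), with 0.673, 0.282 and 0.522 CPM in the resubmerged libraries, 1.42, 0.841 and 0.831 CPM in the dried ones and 1.26 CPM in the control, and c31964_g5_i1 above. The highest in GC was c34094_g2_i1 (317 nt, 60.3% GC), with 1.15, 1.47 and 1.09 CPM in the resubmerged libraries, 4.20, 3.49 and 1.76 CPM in the dried ones and 2.75 CPM in the control, and next was c37860_g1_i1. Short transcripts collect few reads, and in c56202_g1_i1 the library resubmerged after 36 h held 24 counts. In 59 of the 60 genes the upper 95% counting limit of each of the 6 ratios was under 1, the exception being c58482_g1_i1 at 72 h, with a ratio to the dried library of 0.642 (95% counting interval 0.397 to 1.03). In 16 genes each of the 6 upper limits was under 0.67. The choice of members already held all 6 ratios at or under 0.67, so nothing is read from these counts of limits.

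GC content moved with the resubmerged ratios of all genes and not only of these 60. Among stable genes of 45 to 50% GC the median ratio of resubmerged to dried was 0.552, 0.563 and 0.974 after 24, 36 and 72 h, among those of 55 to 60% it was 1.03, 0.893 and 1.06, and among those of 65% or more 2.36, 2.18 and 1.58. The plot by GC band shows this slope, steeper at 24 and 36 h than at 72 h. With each ratio divided by the median of eligible genes in the same band of 5 GC points, a setting chosen after the data were seen, 35 genes met the rule and 18 of the 60 were among them. Of the 60, 50 had all 6 divided ratios under 1, but they were chosen for low undivided ratios, so nothing is read from this. The divided ratio to the control was at or under 0.67 in 27, 38 and 40 of the 60 after 24, 36 and 72 h. That to the dried library was so in 40, 49 and 59. Of the first 10 genes of the ranking 6 met the rule with divided ratios, namely c27453_g2_i1, c8522_g1_i1, c34194_g6_i1, c32542_g2_i1, c23369_g1_i1 and c23193_g1_i1. The most abundant gene, c32288_g2_i1, did not, with divided ratios to the control of 1.41, 1.07 and 0.751 after 24, 36 and 72 h. Its divided ratios to the dried library were 0.857, 0.826 and 0.603. Nor did c38137_g1_i1, with divided ratios to the control of 1.05, 0.491 and 0.363. The median GC of the 35 genes was 57.6%, above that of the 60. What part GC content has in the levels of the resubmerged libraries was not tested.

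**Figure D4:**
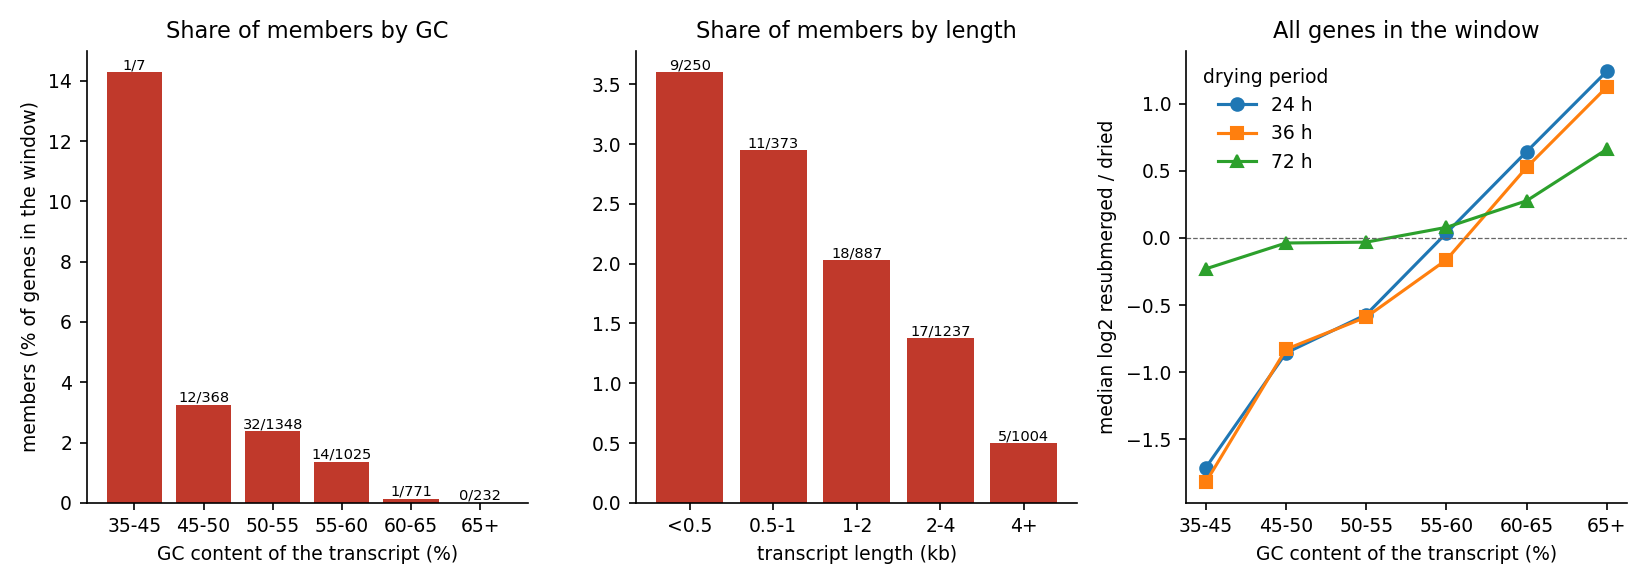
Left and middle, share of stable genes that belong to the 60, by GC content and by length of the transcript, with the counts above the bars. Right, median log2 ratio of resubmerged to dried over all stable genes by GC band and drying period. The shares decline with GC and length, the first GC bar resting on 7 genes, and the medians climb with GC in each period.

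Many other transcripts of these genes met the same limits. Of the 60 genes 17 had 1 transcript and 43 had more, and all 43 had others with at least 50 control counts, 179 transcripts in all. Of the 179, 114 in 38 genes met the whole rule, the window for the dried libraries included, and in 174 all 6 ratios were under 1. Among the other transcripts of eligible genes outside the 60 with the same minimum of control counts, 0.236% met the rule and 11.1% had all 6 ratios under 1. Transcripts of 1 assembled gene can share reads, so these are no independent measurements. The main transcripts of the 60 had met the rule and those of the genes outside had not, so nothing is read from the contrast. The genes with most transcripts were c33893_g1_i10 and c30551_g1_i1, with 12 each, and c32972_g1_i10 (3066 nt, 53.5% GC), with 13. The main transcript of that gene had 6.87, 6.57 and 8.40 CPM in the resubmerged libraries, 19.3, 17.3 and 13.3 CPM in the dried ones and 12.95 CPM in the control. The 5 transcripts that went another way belonged to c31842_g1, c28125_g1, c34373_g1 and c29927_g1. In c28125_g1, 2 of them stood above both the control and the dried library after resubmergence from 36 h, while its main transcript stood at 0.549 times the control and 0.519 times the dried library in that period.

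Neighbours in the assembly were few. In identifiers of this form, as de novo assemblers write them, genes that share the first part come from 1 assembled cluster, and 14 clusters held 22 further eligible genes beside the 60. In 1 of the 22 all 6 ratios were at or under 0.67, where 1.01% of all eligible genes reached this, and in 6 all were under 1, against 9.69% of all eligible genes. With 22 genes nothing is read from these counts. Of the 60, c30385_g1_i2 and c30385_g2_i3 shared a cluster, with ratios of resubmerged to dried of 0.336, 0.531 and 0.646 for c30385_g1_i2 and 0.455, 0.443 and 0.606 for c30385_g2_i3, and genes of 1 cluster may share reads.

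In the authors' deposited tables, which set 1 library against 1 with a scaling of their own, the 60 genes were also lower after resubmergence. The ratio of resubmerged to dried in the authors' deposited tables was under 1 in 60 of 60 genes in each period, with medians of 0.389, 0.354 and 0.501 after 24, 36 and 72 h. Of the 10724 eligible genes it was under 1 in 5401, 4983 and 5038, with medians of 0.988, 1.09 and 1.03. Their unadjusted p was at most 0.05 in 4, 0 and 3 of the 60 genes in these tables, where 1.59%, 1.20% and 2.53% of the eligible genes were lower at this p. No adjusted p in the authors' deposited tables was under 0.05 for any of the 60 genes, in either the resubmerged or the dried comparisons, and the lowest was 0.542. Few eligible genes had one, 0.121%, 0.242% and 1.05% in the resubmerged comparisons of 24, 36 and 72 h in the authors' deposited tables and 0.858%, 0.671% and 0.476% in the dried ones, so the 0 of 60 is near this background. The tables compare the same libraries as the choice of genes did, so they are no further support.

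Which genes meet the rule depended on how the libraries were scaled. With trimmed-mean scaling (TMM) 81 genes met it, 41 of them among the 60, and with median-of-ratios size factors 109 met it, 46 among the 60. With both, the ratios to the control after 24 h moved toward 1 and those after 72 h away from it, while all 9 medians of the 60 genes stayed on their side of 1. The chart of settings shows that a limit of 0.5 left 7 genes and that a window of 0.67 to 1.5 times the control for the dried libraries left 34.

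**Figure D5:**
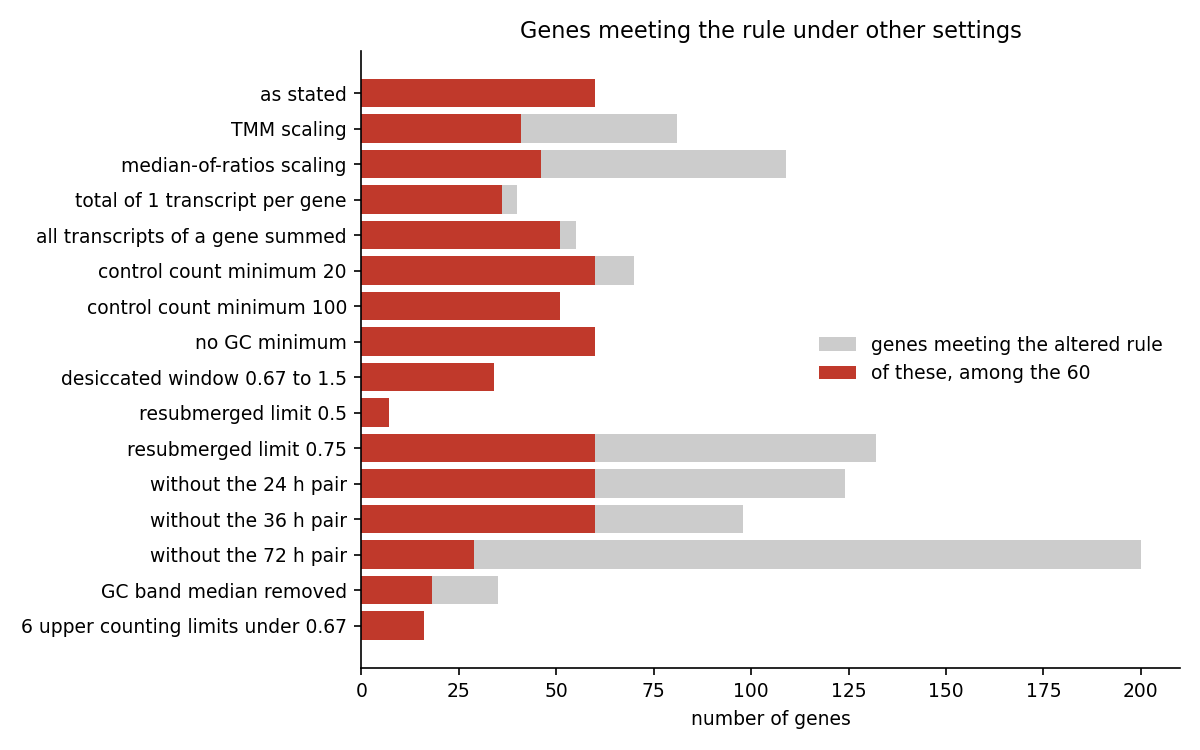
Number of genes meeting the rule as stated (60) and under each other setting, grey bars for all genes and red bars for those among the 60. TMM scaling gives 81 genes with 41 shared, the removal of the GC band median 35 with 18 shared, and without the 72 h pair the list reaches its cap of 200 with 29 shared, while all 60 are among the 609 genes before the cap.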

How the data were processed

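The members and lists were chosen with earlier results of these data known. Per the labels' protocols, RNA came from a commercial plant extraction kit and the libraries from a TruSeq kit. Tools listed in the submitters' processing notes are cutadapt, Bowtie2 and DESeq. The sources used here do not state their versions or settings, the assembler or the program that counted reads.

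The authors' expression table has columns, per the file headers, of read counts and of FPKM for every library, besides the length and the GC content in percent of each transcript. Counts were used as deposited. They sum to 2.56 to 2.91 times the totals that the deposited FPKM values imply, so a read may be counted on several transcripts. The deposited comparison tables give the authors' fold (ratio), p-value and adjusted p-value, 1 library against 1. All 7 libraries differed from each other beyond sampling noise, the chi-square statistic per transcript being 125 at least.

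CPM is the count over the column sum. Groups follow the treatment labels. The rule was tested on simulated counts with counting noise only. This cannot show how often the rule picks genes by other variation between libraries. All ratios, exact counting intervals and medians were computed in Python 3.11.15 (pandas 2.3.3, scipy 1.17.1). With 1 library per condition and all 7 used by the rule, no test was made. Alternative scalings (66046 transcripts with a mean count of 10 or more) came from edgeR 4.0.16 and DESeq2 1.42.0.

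Genes named are the 10 with the lowest value of their largest resubmerged ratio, the 5 highest in control FPKM, the 3 last inside and 3 first outside the limit, and the extremes in single ratios, spread, length, GC and number of transcripts. Others named (the 4 with overlapping libraries, c58482_g1_i1, the genes with deviating transcripts and the pair in 1 cluster) were chosen after their values were seen.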

Additional observations from a re-analysis of the deposited data

How the results depend on the processing

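The number of genes meeting the rule moved most with the periods used and with the limit. It was 60 as stated, 124 without the 24 h pair of libraries, 98 without the 36 h pair and 200 (the cap, 609 before it with all 60 among them) without the 72 h pair. A resubmerged limit of 0.5 or 0.75 gave 7 or 132 genes, a window of 0.67 to 1.5 for the dried libraries 34, and median-of-ratios scaling 109. The 2 settings added after the data were seen gave 35 genes with the GC band median removed and 16 with all 6 upper counting limits under 0.67. TMM scaling (81), the total of 1 transcript per gene (40), summed transcripts (55), control minimums of 20 (70) and 100 (51) and no GC minimum (60) stayed within 1.5 times of 60, but not with the same genes: 41, 36, 51, 60, 51 and 60 of the 60 were met.

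The median log2 ratio of the 60 genes over the control was -1.21 after resubmergence from 24 h, and -0.97 with TMM, -0.996 with median-of-ratios scaling and -0.51 with the GC band median removed. At 36 h it was -1.26, and -0.68 with the GC band median removed. At 72 h it was -0.99, and -1.12, -1.18 and -0.69 in the same order as at 24 h. Over the dried library it was -1.24 at 24 h (-1.40 with TMM, -1.35 with median-of-ratios, -0.87 with GC removed), -1.39 at 36 h (-1.07 with GC removed) and -0.88 at 72 h (-0.97 with TMM, -1.07 with median-of-ratios). All stayed below 0. The dried libraries over the control had 0.07 at 24 h (0.46, 0.40 and 0.35 with TMM, median-of-ratios and GC removed), 0.03 at 36 h (0.27, 0.19 and 0.23) and -0.02 at 72 h (0.30 with GC removed, which turned its direction). Summed transcripts moved none of the 9 medians beyond the 95% binomial interval of the median over genes, and with a control minimum of 100 the median GC (51.4%) and length (1721 nt) stayed within it. The cause of these moves was not tested. No paired analysis was possible because the genes were chosen on these same pairs of resubmerged and dried libraries, so a test over the 3 periods would repeat the choice. Depth limits the genes with few counts, the lowest in a resubmerged library being 17.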
